A study of Homo sapiens with 9 samples.

Results

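ATF4 is the transcription factor through which cells answer stress signals that converge on the translation initiation factor eIF2, and the 10 genes described here are ATF4 itself and genes known to rise with it. They were looked up by symbol, and all 10 were found among the 60617 genes in the files and among the 18532 genes that passed the filter on low counts. RNA was sequenced from PC-3 cells, a human prostate cancer line that lacks p53, in 9 libraries of 3 per group. Control cells received the vehicle, which was sulfuric acid and ethanol in buffered saline. The decitabine group received 1 µM decitabine, an inhibitor of DNA methyltransferases, and the combination group received 1 µM decitabine with 200 µM S-adenosylmethionine (SAM), the methyl donor of the cell. All cells grew in RPMI1640 medium and were collected 5 days after treatment began, so every group shares one cell line and one time point. No source states whether the 3 libraries of a group came from separate cultures, and p-values then measure only the spread between these libraries, which may be technical. Both treated groups received decitabine and differ by SAM, and SAM given without decitabine is not analysed here.

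In the integrated stress response, 4 kinases (PERK, GCN2, PKR and HRI) phosphorylate eIF2, general translation falls, and the ATF4 messenger is translated more. The ATF4 protein then drives genes for amino acid supply and for feedback, usually through C/EBP-ATF response elements. Because ATF4 is controlled largely at translation, its messenger level is not a readout of its protein. In cancer cells the pathway is known both for supporting growth under nutrient shortage and for promoting death when stress lasts.

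Total counts lay between 21934045 and 22489534 per library. The 10 genes held 0.111 to 0.165% of all counts in the controls, 0.0797 to 0.101% after decitabine and 0.0658 to 0.0852% after the combination. Treatment changed much of the transcriptome, and the background against which any count must be read is therefore high. Levels are given as CPM, the count of a gene relative to the total of its library, after TMM scaling, which adjusts for differences in library composition. Changes are log2 fold changes from edgeR's quasi-likelihood test, called at a Benjamini-Hochberg adjusted p under 0.05 over all genes tested. The keratin KRT18, an epithelial marker, stood at 426 CPM in the controls, while KLK3, known to be low in PC-3, was listed at 0 in all 9 libraries. The whole list of genes known to be low in PC-3 summed to 7.55 to 9.36 CPM in the controls, 16.1 to 20.7 CPM after decitabine and 18.3 to 21.5 CPM after the combination. The epithelial cadherin CDH1 was at only 1.87 CPM in the controls. The 4 markers of other cells summed to 1233 to 1327 CPM in the controls, 623 to 723 CPM after decitabine and 567 to 627 CPM after the combination, nearly all of it vimentin (VIM), which PC-3 also expresses. The leukocyte marker PTPRC was at 0.0828 CPM in the controls and at 1.06 CPM after decitabine, and the part of other cells in the results was not tested. Fewer cells of a kind and less RNA per cell cannot be told apart in such bulk samples.

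The promoter sequences of 3 members are shown because they hold the core of the C/EBP-ATF response element, written TGATGNAA and searched on both strands. RefSeq windows (GRCh38.p14, 250 bases before to 50 after a start) matched 9 of the 10 members by symbol, and NUPR1 had none. The element was present in ASNS, CHAC1 and ATF3, that is in 3 of 9 members, against 4.46% of the 27305 genes in the table. By windows it was in 3 of 17, against 3.62% of the 35116 windows. The cyclic AMP response element TGACGTCA, which does not overlap with it, was in none of the 9 members and in 2.25% of all genes. A match describes letters only. The 250 bases upstream of each start are printed 5′ to 3′ on the strand of the gene, with the match in capitals. That of CHAC1 lies on the opposite strand and so reads as the reverse complement, while the other two lie on the strand of the gene.
ASNS, chr7:97872409-97872658, minus strand, match 68 to 61 bases upstream: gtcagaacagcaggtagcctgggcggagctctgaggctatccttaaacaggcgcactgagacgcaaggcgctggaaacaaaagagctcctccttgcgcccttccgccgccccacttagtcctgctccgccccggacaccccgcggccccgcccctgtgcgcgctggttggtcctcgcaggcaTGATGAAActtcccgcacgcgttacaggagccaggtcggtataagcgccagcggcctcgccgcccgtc
CHAC1, chr15:40953221-40953470, plus strand, match 209 to 202 bases upstream: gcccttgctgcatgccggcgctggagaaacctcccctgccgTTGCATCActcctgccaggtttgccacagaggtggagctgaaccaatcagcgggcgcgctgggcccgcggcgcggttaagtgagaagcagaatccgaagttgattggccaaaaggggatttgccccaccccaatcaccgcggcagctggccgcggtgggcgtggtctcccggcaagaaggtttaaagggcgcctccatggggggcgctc
ATF3, chr1:212565157-212565406, plus strand, match 191 to 184 bases upstream: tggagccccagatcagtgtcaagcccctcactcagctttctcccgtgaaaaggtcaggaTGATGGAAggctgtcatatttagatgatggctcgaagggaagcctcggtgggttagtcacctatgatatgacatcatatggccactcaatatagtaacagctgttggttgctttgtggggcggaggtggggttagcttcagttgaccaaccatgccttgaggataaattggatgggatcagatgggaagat
ASNS and CHAC1 were lower in both treated groups, and ATF3 was higher, so the 3 members with a match to this core did not share a direction. ASNS and ATF3 had 2 windows each, of which only the printed window held the match. Which start the RNA came from was not tested.

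Against the controls, 7 of the 10 genes fell and 3 rose, in both treated groups. ATF4, DDIT3, DDIT4, TRIB3, CHAC1, ASNS and NUPR1 were lower, whereas ATF3, ATF5 and GDF15 were higher and so moved against the group. Over all genes tested after decitabine, 36.3% were called higher and 32.5% lower. After the combination the shares were 35.9% and 31.3%. Counted by libraries alone, every one of the 10 genes separated treated from control libraries without overlap, 3 upward and 7 downward in each comparison. The background of such separation was 38.1% of genes upward and 34.8% downward after decitabine, and 38.0% and 33.6% after the combination. The median log2 fold change of the 10 genes was -0.94 after decitabine and -1.28 after the combination, beside 0.03 and 0.05 over all genes tested. Both comparisons use the same 3 control libraries and are not independent of each other.

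**Figure D1:**
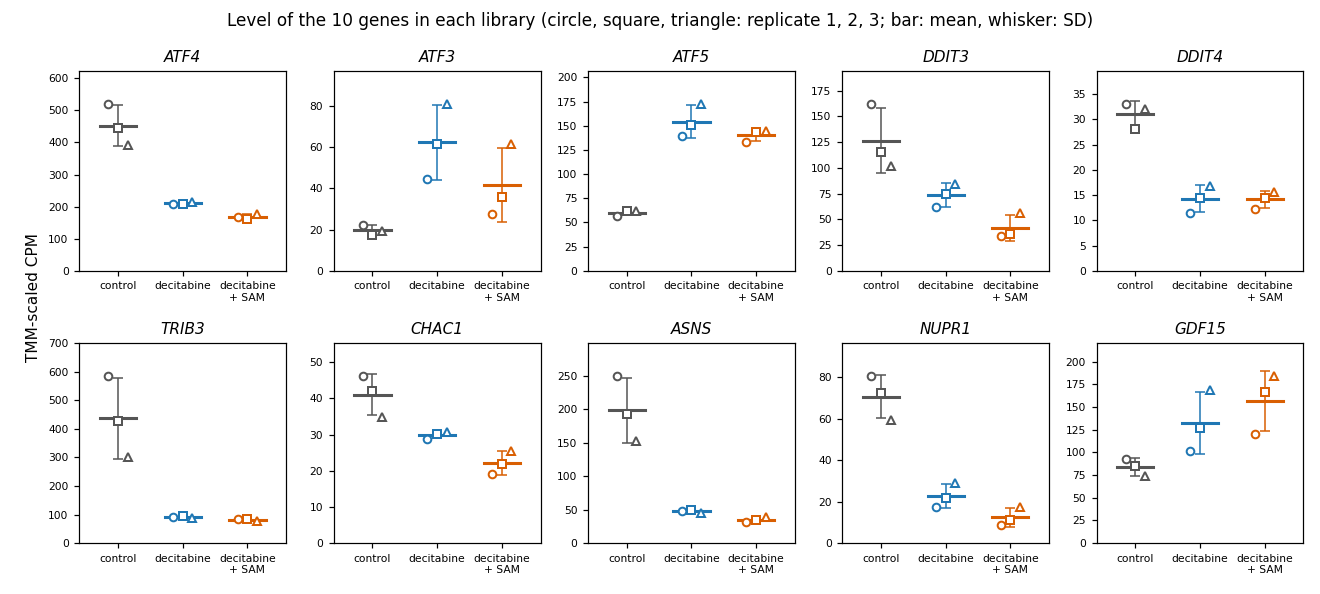
The TMM-scaled CPM (vertical axis, starting at 0) of each of the 10 genes is plotted for 3 control, 3 decitabine and 3 combination libraries, with circles, squares and triangles for replicates 1 to 3, a bar for the mean and whiskers for the SD. ATF4 fell from 452 CPM in the controls to 211 and 168 CPM, while ATF5 rose from 60.1 CPM to 154 and 140.4 CPM, and no treated library overlapped the controls for any gene.

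ATF4 (ENSG00000128272, chr22:39519695-39522683, plus strand, GRCh38) encodes the central activator. Its level was 519, 444 and 392 CPM in the control libraries, 208, 209 and 216 CPM after decitabine, and 168, 161 and 176 CPM after the combination. Each combination library lay below each decitabine library, and each decitabine library below each control. Its mean was 452 ± 64.1 CPM (SD, n = 3) without treatment and fell to 211 ± 3.93 CPM after decitabine, a log2 fold change of -1.10 (SE 0.09, edgeR adjusted p = 1.06e-07). After the combination it was 168 ± 7.65 CPM, a log2 fold change of -1.42 (SE 0.09, edgeR adjusted p = 9.36e-09). Counts at the ATF4 pseudogenes were at most 3 in any library, against at least 3655 for the gene. The 3 genes outside the group whose profile over the 9 libraries was most like that of ATF4 were ECI1, IVD and TALDO1, with Pearson r of 0.9975, 0.9959 and 0.9949 among 10472 genes of at least 10 CPM. These points share groups and scaling, and no p is given.

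ATF3 and ATF5 encode bZIP factors of the same pathway, the first also an early response gene and the second linked to stress of the mitochondria. ATF3 (ENSG00000162772, chr1:212565334-212620777, plus strand) was at 22.4, 17.3 and 19.1 CPM in the controls, 44.7, 61.7 and 81.0 CPM after decitabine, and 27.4, 35.8 and 61.6 CPM after the combination. The treated libraries were all higher than the controls but spread widely, and the treated groups overlapped. The rise was 3.19-fold after decitabine (log2 1.67, SE 0.36, edgeR adjusted p = 0.00469) and 2.12-fold after the combination (log2 1.09, SE 0.36, edgeR adjusted p = 0.0311). The call after the combination was lost without control 1, 2 or 3 or combination 3, and the log2 fold change ran from 0.69 to 1.31 over all libraries left out.

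ATF5 (ENSG00000169136, chr19:49928702-49933935, plus strand) was at 57.1, 61.9 and 61.4 CPM in the controls, 139, 151 and 172 CPM after decitabine, and 133, 143 and 144 CPM after the combination. The groups of treated libraries overlapped each other and lay far above the narrow range of the controls. The rise was 2.56-fold after decitabine (log2 1.36, SE 0.08, edgeR adjusted p = 5.7e-09) and 2.33-fold after the combination (log2 1.22, SE 0.08, edgeR adjusted p = 1.53e-08). The genes most like ATF5 over the 9 libraries were PDLIM2, C1orf116 and TENT5B, with r of 0.9979, 0.9975 and 0.9974, and those most like ATF3 were TNIP1, UBN1 and BIRC2, with r of 0.9823, 0.982 and 0.9817. ATF5 overlaps IL4I1 and NUP62 on the opposite strand, and no source used here states whether the counting used strand. IL4I1 rose from 6 to 14 counts in the controls to 275 to 592 counts after decitabine and 127 to 343 counts after the combination, whereas ATF5 held at least 1151 counts in every library. NUP62 moved the other way, from 3622 to 3856 counts in the controls to 2511 to 2841 counts in the treated libraries.

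DDIT3 (ENSG00000175197, chr12:57516588-57521737, minus strand) encodes CHOP, a bZIP factor tied to cell death under stress of the endoplasmic reticulum. It was at 162, 116 and 102 CPM in the controls, 61.9, 75.1 and 84.8 CPM after decitabine, and 33.7, 35.7 and 56.3 CPM after the combination. The 3 groups did not overlap, with the combination lowest. The log2 fold change was -0.77 (SE 0.25, edgeR adjusted p = 0.0273) after decitabine and -1.59 (SE 0.26, edgeR adjusted p = 0.00102) after the combination. The decitabine call was lost without control 1 or without decitabine 1 or 2, and the value over all libraries left out ran from -0.91 to -0.56. MARS1 and MBD6 overlap DDIT3 on the opposite strand, and MARS1, from 8388 to 9262 counts in the controls to 4266 to 5136 counts in the treated libraries, fell too.

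TRIB3, CHAC1 and ASNS are textbook targets of ATF4. TRIB3 (ENSG00000101255, chr20:362835-397559, plus strand) encodes a pseudokinase that restrains ATF4 and DDIT3 in a feedback loop. It was at 584, 426 and 301 CPM in the controls, 91.9, 96.4 and 89.5 CPM after decitabine, and 83.6, 84.2 and 78.9 CPM after the combination. The controls were spread 1.94-fold between the highest and the lowest library, and even the lowest stood far above all 6 treated libraries. TRIB3 was 4.72-fold lower after decitabine (log2 -2.24, SE 0.21, edgeR adjusted p = 2.03e-05) and 5.31-fold lower after the combination (log2 -2.41, SE 0.21, edgeR adjusted p = 1.42e-05).

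ASNS (ENSG00000070669, chr7:97851677-97872542, minus strand) encodes asparagine synthetase. It was at 249, 193 and 153 CPM in the controls, 48.5, 49.5 and 45.5 CPM after decitabine, and 31.8, 34.1 and 38.3 CPM after the combination. The 3 groups did not overlap. ASNS was 4.15-fold lower after decitabine (log2 -2.05, SE 0.15, edgeR adjusted p = 8.58e-07) and 5.71-fold lower after the combination (log2 -2.51, SE 0.16, edgeR adjusted p = 2.3e-07). A long non-coding RNA annotated on the same strand (ENSG00000284707) overlaps the gene, with 278 to 336 counts in control libraries and 98 to 135 in treated ones, against 730 to 5022 counts for ASNS. The ASNS pseudogenes held at most 1 count.

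CHAC1 (ENSG00000128965, chr15:40952962-40956512, plus strand) encodes an enzyme that degrades glutathione. It was at 46.1, 42.0 and 35.0 CPM in the controls, 28.9, 30.2 and 30.6 CPM after decitabine, and 19.1, 21.9 and 25.4 CPM after the combination. The groups stepped down without overlap. The log2 fold change was -0.46 (SE 0.11, edgeR adjusted p = 0.00229) after decitabine, the smallest of the 7 falls, and -0.89 (SE 0.11, edgeR adjusted p = 8.93e-06) after the combination.

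DDIT4, NUPR1 and GDF15 are outputs of the response with wider roles. DDIT4 (ENSG00000168209, chr10:72273919-72276036, plus strand) encodes REDD1, an inhibitor of mTORC1. It was at 33.0, 28.1 and 32.1 CPM in the controls, 11.5, 14.5 and 16.8 CPM after decitabine, and 12.3, 14.5 and 15.6 CPM after the combination. Both treated groups sat at about the same level below the controls. The log2 fold change was -1.12 (SE 0.13, edgeR adjusted p = 3.23e-06) after decitabine and -1.14 (SE 0.13, edgeR adjusted p = 3.04e-06) after the combination.

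NUPR1 (ENSG00000176046, chr16:28532708-28539008, minus strand) encodes a small chromatin protein induced by stress. It was at 80.3, 72.1 and 59.4 CPM in the controls, 17.5, 21.8 and 28.8 CPM after decitabine, and 8.53, 11.2 and 17.3 CPM after the combination. The treated groups did not overlap, but the highest combination library was just below the lowest decitabine library. NUPR1 was 3.11-fold lower after decitabine (log2 -1.64, SE 0.27, edgeR adjusted p = 0.000986) and 5.71-fold lower after the combination (log2 -2.51, SE 0.29, edgeR adjusted p = 0.000121).

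GDF15 (ENSG00000130513, chr19:18374731-18389176, plus strand) encodes a secreted cytokine of the TGF-β superfamily. It was at 92.7, 84.5 and 73.5 CPM in the controls, 101, 127 and 169 CPM after decitabine, and 119.7, 166 and 184 CPM after the combination. The lowest decitabine library was only slightly above the highest control. The rise was 1.59-fold after decitabine (log2 0.67, SE 0.22, edgeR adjusted p = 0.0279) and 1.87-fold after the combination (log2 0.91, SE 0.22, edgeR adjusted p = 0.00723). The decitabine call was lost without control 2 or 3 or decitabine 2 or 3, with log2 fold changes between 0.45 and 0.83 over all libraries left out.

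**Figure D2:**
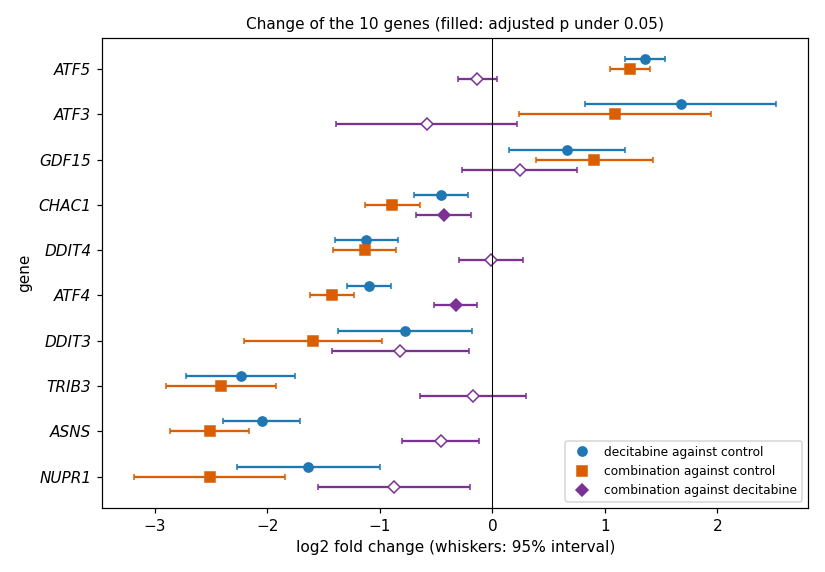
Log2 fold changes (horizontal axis) of the 10 genes are plotted with 95% intervals for decitabine against control (blue circles), the combination against control (orange squares) and the combination against decitabine (purple diamonds), filled where the adjusted p is under 0.05. All 20 values against control are filled, 3 genes to the right of 0 and 7 to the left, while only ATF4 and CHAC1 are filled between the treated groups.

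Between the treated groups, the comparison asks what SAM added to decitabine. ATF4 fell further, by 0.33 on the log2 scale (95% interval -0.52 to -0.13, edgeR adjusted p = 0.0266), and CHAC1 by 0.43 (95% interval -0.68 to -0.19, edgeR adjusted p = 0.0217). The ATF4 call was lost without decitabine 1, 2 or 3 or combination 1 or 2 (edgeR adjusted p 0.0512 to 0.128). Its log2 fold change ran from -0.36 to -0.29 over all libraries left out. The CHAC1 call was lost without decitabine 2 or combination 1 or 2, with values from -0.55 to -0.34 over all libraries left out. No member was called higher by edgeR, DESeq2 or voom and limma, and 0 were higher at an unadjusted edgeR p under 0.05, beside 5 lower. The share of all genes at that unadjusted threshold was not counted, here or for the lists below. Over all genes tested, 7.67% were called higher and 8.02% lower at the adjusted threshold. ATF4, DDIT3, TRIB3, CHAC1, ASNS and NUPR1, 6 of the 10, lay below decitabine without overlap and none lay above it, beside 16.8% of all genes downward and 17.2% upward. The median of the 10 genes was -0.38, beside 0.002 over all genes. DDIT3 was at -0.82 (95% interval -1.43 to -0.21, edgeR adjusted p = 0.0756), NUPR1 at -0.88 (95% interval -1.55 to -0.20, edgeR adjusted p = 0.0831) and ASNS at -0.46 (95% interval -0.81 to -0.12, edgeR adjusted p = 0.0702). These 3 did not pass the test. ATF3 was at -0.59 (95% interval -1.39 to 0.22), TRIB3 at -0.17 (95% interval -0.64 to 0.30), ATF5 at -0.13 (95% interval -0.31 to 0.04) and GDF15 at 0.24 (95% interval -0.27 to 0.75). DDIT4 was at -0.01 (95% interval -0.30 to 0.27). The number called lower ran from 0 to 5 when single libraries were left out. With DESeq2 it was 5 (ASNS, DDIT3 and NUPR1 added), and with voom and limma 4 (DDIT3 and NUPR1 added), beside 8.61% and 8.37% of all genes. Of the libraries left out, it was 0 without decitabine 2, combination 1 or combination 2, 1 without decitabine 1 or 3, 4 without control 1, and 5 without combination 3.

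Divided by the length of the canonical GENCODE 44 transcript, the order of the levels changed with treatment. In the controls ATF4 was highest at 318 CPM per kilobase, followed by TRIB3 at 186, DDIT3 at 140.1, ASNS at 83.2 and GDF15 at 69.6 CPM per kilobase. After decitabine ATF4 was at 149, GDF15 at 110.4, DDIT3 at 81.9 and ATF5 at 76.8 CPM per kilobase. After the combination GDF15 was at 131 and ATF4 at 119 CPM per kilobase. ATF5 and CHAC1 stood near each other in the controls, at 30.0 and 27.0 CPM per kilobase, as did ASNS and CHAC1 after the combination, at 14.6 CPM per kilobase each. ATF3 was lowest in the controls at 10.1 CPM per kilobase. The place of NUPR1 is uncertain, since it stood at 13.3 CPM per kilobase with the canonical transcript of 5291 bases and at 128 CPM per kilobase with the shorter NUPR1-202 of 550 bases.

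The spread within groups had more than one form. In the controls, replicate 1 was highest and replicate 3 lowest for ATF4, TRIB3, ASNS, CHAC1, DDIT3, NUPR1 and GDF15. HSPA5, the main chaperone of the endoplasmic reticulum, also spread widely in the controls, at 2620 ± 953 CPM (SD, n = 3). In both treated groups, replicate 3 was highest and replicate 1 lowest for ATF3, DDIT3, DDIT4, CHAC1, NUPR1, GDF15 and ATF5. TRIB3 had no such pattern there, with a high-to-low ratio of 1.08 after decitabine and 1.07 after the combination. ATF3 had ratios of 1.81 and 2.25. Removing the group means from log2 CPM, the deviations of ATF4 and ASNS over the 9 libraries had Pearson r of 0.916 and those of ATF3 and NUPR1 0.949, but those of ATF3 and TRIB3 0.050. These are descriptions, since the libraries share groups and scaling.

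**Figure D3:**
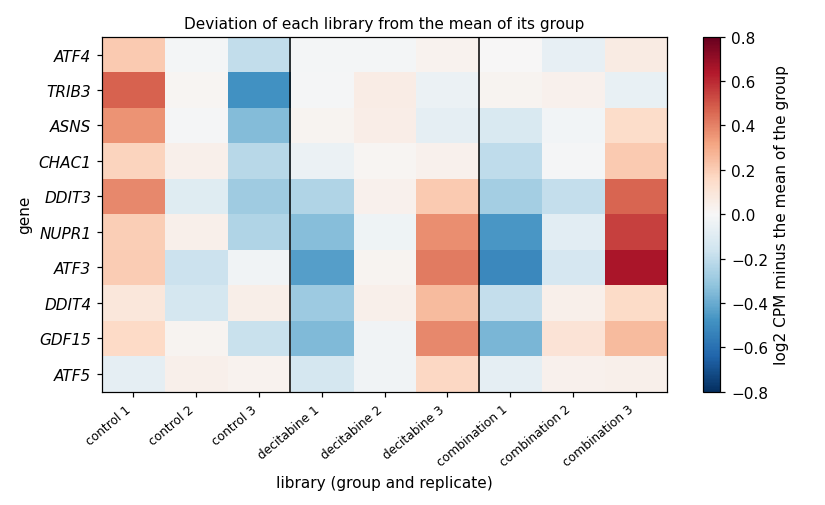
The colour of each cell is the log2 CPM of a library minus the mean of its group, for 10 genes (rows) and 9 libraries (columns), from blue at -0.8 to red at 0.8. ATF4, TRIB3 and ASNS deviate mostly in control 1 and control 3, whereas ATF3, NUPR1 and GDF15 deviate mostly in replicates 1 and 3 of the treated groups.

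Of the 4 kinases that act upstream, PKR (EIF2AK2), the sensor of double-stranded RNA and itself induced by interferon, was the one called. EIF2AK2 was at 77.2, 76.5 and 80.5 CPM in the controls, 149, 132 and 107 CPM after decitabine, and 55.0, 65.5 and 85.4 CPM after the combination. Decitabine libraries stood above all others, and the combination libraries spread around the controls. The log2 fold change was 0.73 (edgeR adjusted p = 0.002) after decitabine, -0.19 (edgeR adjusted p = 0.322) after the combination, and -0.92 (edgeR adjusted p = 0.00598) between the treated groups. After the combination EIF2AK2 was called lower with no filter on low counts (-0.22, edgeR adjusted p = 0.036) and without combination 3 (-0.37, edgeR adjusted p = 0.0186). HRI (EIF2AK1), PERK (EIF2AK3) and GCN2 (EIF2AK4) did not pass the test in any of the 3 comparisons, with log2 fold changes from -0.25 to 0.08. EIF2AK3 after the combination, at -0.25, was called lower with no filter (-0.28, edgeR adjusted p = 0.00934), without control 3 (-0.31, edgeR adjusted p = 0.0464) and without combination 3 (-0.39, edgeR adjusted p = 0.00305). With library size alone as the scaling, EIF2AK4 after decitabine (0.24) and EIF2AK1 after the combination (0.20) were called higher. In the list of 20 genes for eIF2 and its regulation, 1 was called higher and 9 lower after decitabine, and 0 and 10 after the combination. Of the relay from mitochondria to HRI, both genes fell, with DELE1 at -0.82 and -1.04 and OMA1 at -0.70 and -0.99.

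**Figure D4:**
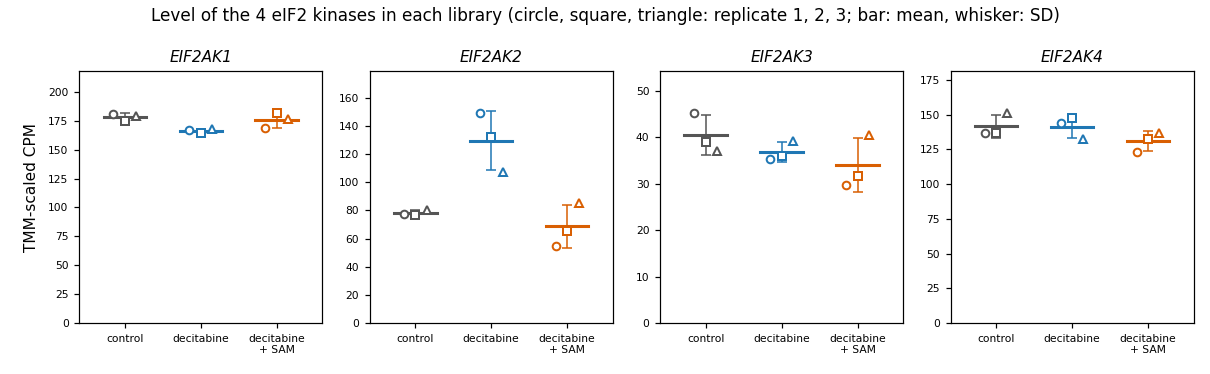
TMM-scaled CPM (vertical axis, starting at 0) of the 4 eIF2 kinases is plotted for the 3 control, 3 decitabine and 3 combination libraries, with circles, squares and triangles for replicates 1 to 3, a bar for the mean and whiskers for the SD. EIF2AK2 stands at 107 to 149 CPM in the decitabine libraries, above all other libraries, while the other kinases show no such step.

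Other lists of the pathway were read by counts, against the same background shares. Among 12 ATF4 targets for amino acid and one-carbon enzymes, 10 were lower and 2 higher in both treated groups, with medians of -1.03 and -1.29. PHGDH, the first enzyme of serine synthesis, fell by 2.18 and 2.12 on the log2 scale, and SHMT2 by 1.87 and 1.97. The 2 that rose were ALDH1L2, a mitochondrial folate enzyme, from 2.19 CPM to 35.0 and 28.3 CPM, and CTH, which makes cysteine from cystathionine, by 1.23 and 1.10 on the log2 scale. All 13 tRNA synthetase and tRNA export genes were lower in both comparisons, with medians of -0.76 and -0.92, led by AARS1 (-1.21 and -1.39) and GARS1 (-1.22 and -1.34). Of 9 amino acid transporters tested among 10, 7 were lower in each. They included SLC7A11, the cystine importer, at -1.96 and -1.69, and SLC6A9, a glycine importer, at -0.94 and -1.58.

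Of 15 signalling and secreted targets tested among 16, 10 were lower and 1 higher after decitabine, and 11 were lower and 0 higher after the combination. SESN2, an inhibitor of mTORC1 signalling, fell by 1.72 and 2.09, LONP1, a mitochondrial protease, by 1.64 and 1.44, and NIBAN1 by 1.98 and 2.12. ADM2, a secreted peptide, was at -1.90 and -2.44. The 6 DDIT3 targets were split. After decitabine 2 rose and 1 fell, after the combination 1 rose and 2 fell. ERO1A, an oxidase of the endoplasmic reticulum, rose by 0.88 and 0.86, whereas TNFRSF10B, a death receptor, fell by 0.53 and 0.62. BBC3, known as PUMA, was at -0.50 (not called) and -0.97.

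The other stress arms were mostly lower. The lists share genes, since HERPUD1, LONP1, JDP2 and CEBPG, for example, are counted also among the signalling and secreted ATF4 targets. Of 20 genes of the ATF6 and XBP1 arms, 16 were lower after decitabine and 17 after the combination, and none was higher, also at an unadjusted edgeR p under 0.05. HSPA5 was at -1.63 and -1.90 and HERPUD1 at -1.79 and -2.07. Of 12 genes of the mitochondrial response, 10 and 9 were lower and none higher (1 after the combination at an unadjusted edgeR p under 0.05), TRAP1 by 1.17 and 1.15. The other bZIP factors, 25 tested of 26, went both ways, with 9 higher and 10 lower after decitabine and 10 and 11 after the combination. FOS rose from 1.07 CPM to 4.56 and 6.45 CPM, and BATF2, an interferon-induced factor, from 1.46 CPM to 29.3 and 6.44 CPM. The 3 combination libraries held 4.40, 3.48 and 11.5 CPM of BATF2, and its log2 fold change after the combination, 2.14 over all libraries, ran from 1.43 to 2.44 over the libraries left out, lowest without combination 3. CEBPG, a partner of ATF4, fell by 1.26 and 1.38, and ATF6B by 1.32 and 1.51.

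Among the paralogues, 6 tested of 7, DDIT4L was listed with 0 counts in every control library, with 42 over the decitabine group and with 19 over the combination group, at least 11.9-fold and at least 5.53-fold higher against a floor of 3 counts over the group. CHAC2 was at 0.01 (not called) and 0.33, ASNSD1 at -0.55 and -0.22, and JDP2, a relative of ATF3 counted also among the bZIP factors, at -0.53 and -0.96. After the combination the CHAC2 call was lost without control 1 or combination 1, and the ASNSD1 call with library size alone (-0.0051) and without control 1 or combination 3. The JDP2 call after decitabine was lost with library size alone and without control 1. In the p53 family list, 5 of 15 were higher and 6 lower after decitabine, and 5 each after the combination. PC-3 lacks p53, and CDKN1A rose by 2.55 and 2.32, TP53INP1 by 1.66 and 1.44, and XPC fell by 0.54 and 1.14. SESN2, counted also as an ATF4 target, had the largest fall of the p53 family list, by 1.72 and 2.09. In the list of 10 HIF targets, 4 were higher and 4 lower after decitabine and 5 and 4 after the combination. CA9 was at 0.679 CPM in the controls and at 3.52 and 4.35 CPM in the treated groups. Its log2 fold change after decitabine, 2.37 over all libraries, ran from 1.85 to 4.51 over the libraries left out, and the call was lost without control 2 or 3, decitabine 1 or 2 or combination 2 and with no filter. Its call after the combination was lost without control 2 or 3 or combination 1 and with no filter. EGLN3 rose by 1.39 and 2.13, NDRG1 fell by 1.57 and 1.62, and VEGFA, also an ATF4 target, by 0.97 and 1.12. The lists were picked with earlier results known, and no list was tested as a set.

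**Figure D5:**
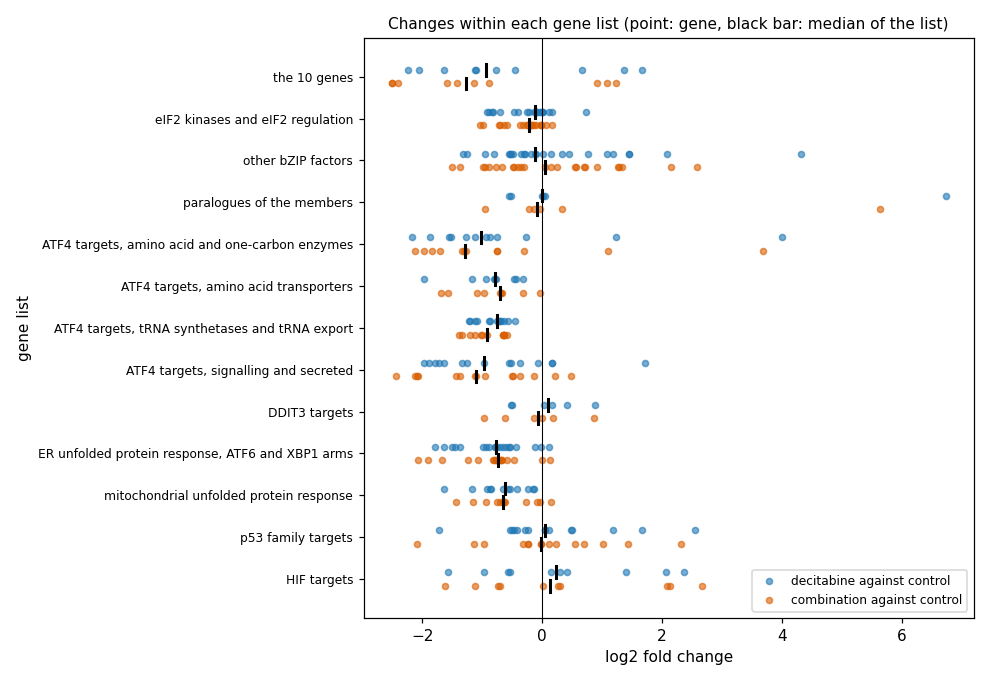
Each point is a gene, placed by its log2 fold change (horizontal axis) for decitabine (blue) or the combination (orange) against control, in the gene lists on the vertical axis, with a black bar for the median of the list. The medians of the amino acid enzymes and the tRNA synthetases lie left of 0, at -1.03 and -0.76 after decitabine. Those of the p53 family and HIF targets lie at 0.04 and 0.23 after decitabine.

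Between the treated groups the calls of edgeR in these lists stand beside 7.67% higher and 8.02% lower over all genes tested. Of the ATF4 target lists, the amino acid enzymes held 0 (3 lower at an unadjusted p under 0.05), the transporters 1, the synthetases 1 and the signalling genes 2, all lower. The ATF6 and XBP1 arms held 1 lower, the mitochondrial response 2 higher, the DDIT3 targets 1 lower and the HIF targets 0 (1 higher at an unadjusted p under 0.05). The eIF2 list held 1 higher and 3 lower, the bZIP factors 2 and 2, the paralogues 1 higher and the p53 family targets 1 and 1. With library size alone as the scaling, the median of all genes moved to 0.28 after decitabine and 0.27 after the combination, and all 10 members kept their direction against control. DDIT3 (-0.53, edgeR adjusted p = 0.114) and CHAC1 (-0.21, edgeR adjusted p = 0.129) after decitabine then did not pass the test. With no filter on low counts, DDIT3 (edgeR adjusted p = 0.0607) and GDF15 (edgeR adjusted p = 0.0948) after decitabine and ATF3 after the combination (edgeR adjusted p = 0.0775) did not pass it either.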

How the data were processed

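Bulk RNA-seq of PC-3 cells (3 control, 3 decitabine, 3 combination) was used. The authors trimmed reads with Trim Galore 0.6.4 and deposited estimated counts per Ensembl gene from kallisto on GRCh38.p13, with CPM tables that were not used here. Whether the counting used strand is not given in the sources used here.

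Estimated counts were rounded to whole numbers. Genes were named and placed with GENCODE 44, and 60357 of 60617 IDs matched. Genes were filtered with filterByExpr (18532 kept), scaled by TMM and tested with edgeR 4.0.16 (R 4.3.3, quasi-likelihood, robust, all 9 libraries, no replicate block). P-values were adjusted by Benjamini-Hochberg over all genes tested, with a threshold of 0.05. The fit was tested on simulated data. No pair of libraries agreed within counting noise (chi-square per degree of freedom 5.86 to 23.5). Means are over 3 libraries. Alternatives used DESeq2 1.42.0, limma 3.58.1, other filters and scalings, and each library left out.

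The named genes of each list were up to 2 called higher and 2 called lower with the largest change after the combination, plus the 4 eIF2 kinases. The 10 members and the lists were chosen with earlier results of these data known. Total counts were 21934045 to 22489534 per library, and the 3 libraries per group limit precision.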

Additional observations from a re-analysis of the deposited data

How the results depend on the processing

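Against control, the direction of all 10 members was the same under every alternative run. The 7 falls after the combination stayed called in all of them except an absolute log2 fold change of at least 1, which left 6. The members called lower after decitabine ran from 6 to 7 over the libraries left out. With library size alone, DDIT3 and CHAC1 lost their calls after decitabine. At -0.77 and -0.46 they also fell short of the cut of 1, as did the rise of GDF15 at 0.67. Under the replicate number as a block, 6 members were called lower after decitabine, since DDIT3 was at -0.79 (edgeR adjusted p = 0.0683), with 7 lower after the combination, 3 higher in each and 2 lower between the treated groups. The numbers were not taken to pair the libraries, because the correlations of same-numbered deviations ran from -0.0165 to 0.233 and not every decitabine library correlated above 0.1 with its own number. As a hint from the data, each decitabine library correlated best with the combination library of its number, as did control 1 and control 3 but not control 2. The correlations of libraries with different numbers ran from -0.22 to 0.0579, and shared handling by number was not tested. Under the block the amino acid enzymes and the HIF targets each held 1 call between the treated groups, where 10.2% of all genes were called lower. Other shares of all genes under the block were not counted. The members lower between the treated groups numbered 5 with DESeq2, 4 with voom and limma, 0 with an absolute log2 fold change of at least 1, and 0 to 5 over the libraries left out. Of all genes, 8.61%, 8.37% and 1.74% were called lower in those fits, and 2.62% (without combination 2, no member) to 10.8% (without combination 3, 5 members) over the libraries left out. The causes were not tested.

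With an absolute log2 fold change of at least 1, fewer genes could be called. The list counts below take both directions together. Shares of all genes at this cut were not counted against control, so those counts show no difference between a list and other genes. After decitabine the lists held 0 calls for eIF2 regulation, 8 for bZIP factors, 1 for paralogues, 2 for transporters, 4 for synthetases, 0 for DDIT3 targets, 5 for the ATF6 and XBP1 arms, 2 for the mitochondrial response, 4 for p53 family targets and 4 for HIF targets. After the combination these were 1, 7, 1, 3, 6, 0, 5, 2, 5 and 5. Between the treated groups the bZIP factors and the signalling genes held 1 each, and the eIF2 list, paralogues, transporters, synthetases, DDIT3 targets, ATF6 and XBP1 arms, mitochondrial response and p53 family targets 0 each. At this cut 1.74% of all genes were called lower between the treated groups, and the share called higher was not counted. With library size alone, 5 DDIT3 targets were called after decitabine, both directions together. In that fit the median of all genes moved to 0.28, and the share of all genes called was not counted.

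Between the treated groups with no filter on low counts, calls numbered 3 for paralogues, 2 for amino acid enzymes, 2 for transporters, 0 for synthetases, 6 for signalling genes, 2 for DDIT3 targets, 4 for p53 family targets and 1 for HIF targets. In that fit 4.52% of 37784 genes were called lower. The list counts here take both directions, whereas the shares beside them cover genes called lower only. The share called higher was not counted under these settings, and in the main fit it was 7.67%, beside 8.02% lower. With the 6 libraries compared alone, calls numbered 2 for eIF2 regulation, 1 for amino acid enzymes, 1 for signalling genes and 4 for the ATF6 and XBP1 arms, beside 6.30% of all genes called lower. DESeq2 gave 1 amino acid enzyme, and voom and limma gave 1 HIF target. Over the libraries left out, calls ran from 1 to 6 for eIF2 regulation, 2 to 5 for bZIP factors, 0 to 2 for paralogues, 0 to 1 for amino acid enzymes, 0 to 2 for transporters, 0 to 1 for synthetases, 0 to 6 for signalling genes, 0 to 2 for DDIT3 targets, 0 to 1 for the ATF6 and XBP1 arms, 0 to 5 for the mitochondrial response and 0 to 1 for HIF targets. Without combination 3 the signalling genes held 6, the mitochondrial response 5, and the transporters, DDIT3 targets and paralogues 2 each. Without decitabine 2 or combination 2 the transporters, synthetases, DDIT3 targets, paralogues, mitochondrial response and the ATF6 and XBP1 arms held 0 each, the bZIP factors 2 and eIF2 regulation 1. The signalling genes held 1 without decitabine 2 or combination 1 and 0 without combination 2. Without combination 1 the transporters, synthetases, paralogues and mitochondrial response held 0. Without decitabine 1 the transporters and synthetases held 0, eIF2 regulation and the mitochondrial response 1, and paralogues 2. Without control 2 eIF2 regulation held 2 and the synthetases 0. The amino acid enzymes held 1 without control 1, control 3, decitabine 3 or combination 3, and the HIF targets 1 without decitabine 3. Against control, paralogues called after the combination ran from 2 to 4, with 2 without control 1.

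Values near 0 changed sign. DDIT4 between the treated groups ran from -0.15 to 0.12 over the libraries left out. CHAC2 after decitabine was at -0.035 with no filter, -0.0043 under the block and -0.0023 with voom and limma, and ran from -0.091 to 0.11 over the libraries left out. EIF2AK4 after decitabine was at 0.018 with DESeq2 size factors and with DESeq2, 0.015 with a mean of at least 10 counts, 0.0063 with 6 libraries, 0.24 with library size alone (edgeR adjusted p = 0.00977), and ran from -0.036 to 0.048 over the libraries left out. With library size alone, EIF2AK1 was at 0.15 after decitabine and 0.20 after the combination (edgeR adjusted p = 0.0113), EIF2AK3 at 0.11 after decitabine, and EIF2AK2 and EIF2AK4 at 0.040 and 0.11 after the combination. With the form TGATGCAA alone, 1 member rather than 3 held the response element, beside 1.08% of the 27305 genes. The length of NUPR1-202 as the divisor was chosen after seeing the data. With 3 libraries per group, differences between the treated groups could be missed where the libraries spread widely. ATF4 at -0.33 was called there, whereas DDIT3 at -0.82 was not.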
